A study of Homo sapiens with 10 samples.

Results

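The switch between epithelial and mesenchymal cell states is read here at 4 genes: CDH1, which encodes E-cadherin, the adhesion protein of epithelial cell junctions; VIM, which encodes the mesenchymal intermediate filament vimentin; and ZEB1 and SNAI2 (Slug), which encode zinc finger repressors. The regions were all peaks whose summit lay in a fixed interval around each gene on hg19, namely chr16:68740000-68880000 for CDH1, chr10:17240000-17300000 for VIM, chr10:31580000-31830000 for ZEB1 and chr8:49780000-49890000 for SNAI2. These intervals are 140, 60, 250 and 110 kb wide. They held 321 of 879550 deposited peaks on autosomes and X, and merging summits of all lists whose 150-bp flanks overlapped gave 88 of 248897 sites. Of these, CDH1 had 16 sites from 69 peaks, VIM 18 from 79, ZEB1 29 from 64 and SNAI2 25 from 109. Sites are numbered along the chromosome within each locus. The gene names are those attached to the intervals. No hg19 gene annotation was used here, so exons, introns and start sites are not assigned to the peaks, and a site is described as lying at a locus, not as acting on its gene.

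The peaks came from ChIP-seq in MCF10A-ER-Src cells, an immortalized, non-tumorigenic line of human mammary epithelium with a Src oncoprotein fused to an estrogen receptor domain, which tamoxifen switches on. Of the 10 groups, 5 were non-transformed cells (ethanol in the sample titles) and 5 were cells transformed with 1 μM 4-hydroxy-tamoxifen for 12 h. A library name in the header of each list carries a time, which is 36 h for the ethanol cultures and 12 h for the transformed ones. State and this time differ together in every comparison below, so their parts cannot be told apart. All 10 groups share the line and its fusion gene, and each is 1 library of 1 protein in 1 state: FOS, JUN, JUNB, NFKB1 or STAT3. With no replicates, no difference below was tested against the spread between cultures. The intervals of levels and ratios cover counting error only, and the Wilson intervals of shares treat sites as independent draws.

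E-cadherin holds epithelial cells together, and its loss is a textbook step of the epithelial-mesenchymal transition, in which cells gain vimentin filaments and motility. ZEB1 and Slug are known to repress CDH1 by binding E-box elements in its promoter. FOS, JUN and JUNB are members of the AP-1 family, in which JUN proteins pair with one another or with FOS proteins on DNA. NFKB1 encodes the p50 subunit of NF-κB, the factor of inflammatory signaling, and STAT3 is the factor that cytokines such as IL-6 activate by tyrosine phosphorylation. The STAT3 antibody in the labels is a product raised against the tyrosine-phosphorylated form.

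Because ZEB1 and Slug bind E-boxes and the immunoprecipitated proteins have known elements, the RefSeq promoter windows of GRCh38.p14 (250 bases before to 50 after a start, 300 in all) were searched on both strands. The motifs were TGANTCA for AP-1, TTCNNNGAA for STAT proteins, the NF-κB consensus by name, and CACCTG for the E-box. They occurred in 7.71%, 7.66%, 11.3% and 20.6%, respectively, of 35116 windows. The table holds 1 window for VIM, in which none of the 4 motifs was found, and 7 for ZEB1, of which 2 held E-boxes and 1 held the NF-κB consensus, whereas AP-1 and STAT letters were found in none of the 7. CDH1 and SNAI2 have no entry. The matches at ZEB1 are printed because its promoter carries the element that its own protein binds, with the motif in capitals and 10 bases (8 at a window's edge) on either side, on the plus strand of chromosome 10.
ZEB1 E-box at chr10:31318350-31318375: gaggtgacagCAGGTGagggccgggt
ZEB1 E-box at chr10:31318966-31318989: ccccaccaCACCTGaggaaaactt
ZEB1 E-box at chr10:31319121-31319146: tgtcgtaaacCAGGTGcggtggggag
ZEB1 E-box at chr10:31319239-31319264: cggatggcccCAGGTGtaagcgcaga
ZEB1 NF-κB element at chr10:31318633-31318662: ccctcatcaaGGGAACTCCCcggggagtcc
These positions are on GRCh38 and the peaks on hg19, so the data do not show whether a peak covers them, and no sequence was read under the peaks. A further NF-κB match on the opposite strand, at chr10:31318634-31318663 with its flanks, overlaps the printed one and is not shown.

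The libraries held 4837474 to 22082403 reads after the authors' filter. Autosomes and X together had 13252 to 164605 peaks per list. The NFKB1 library of non-transformed cells was the shallowest and had the shortest list. The background that the peak caller MACS estimated around the peaks was close to its level over the genome at every locus, with medians of 1.02 (CDH1), 1.05 (VIM), 1.02 (ZEB1) and 1.08 (SNAI2) times that level, compared with 1.02 over all peaks. It was estimated over 1000000 bp, wider than any of the intervals, and was below the genome level at 0 peaks of the series. These medians therefore say little about background within the intervals.

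The VIM and SNAI2 loci were dense in AP-1 peaks, and ZEB1 was near or below the genomic density. CDH1 lay between them for FOS. FOS had 16.7 peaks per 100 kb at VIM and 16.4 at SNAI2 in non-transformed cells, and 15 and 15.5 in transformed cells, compared with 4.44 and 6.1 over the genome. At CDH1 the FOS densities were 7.86 and 8.57 per 100 kb, and at ZEB1 they were 4 and 6.8. JUN had 23.3 and 18.3 peaks per 100 kb at VIM, against 3.02 and 4.72 over the genome, but 2 and 3.6 at ZEB1. At CDH1 JUN had 2.86 in non-transformed cells, below the genomic density, and 7.86 in transformed cells. STAT3 followed a similar order in transformed cells, with 10.9 peaks per 100 kb at SNAI2, 10 at VIM, 5 at CDH1 and 1.6 at ZEB1, against 2.97 over the genome. NFKB1 in transformed cells had 11.7 at VIM, 10 at SNAI2, 2.86 at CDH1 and 2.4 at ZEB1, against 2.73. These densities describe intervals that were chosen for their genes, which most of the genome is not, and they were not tested.

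**Figure D1:**
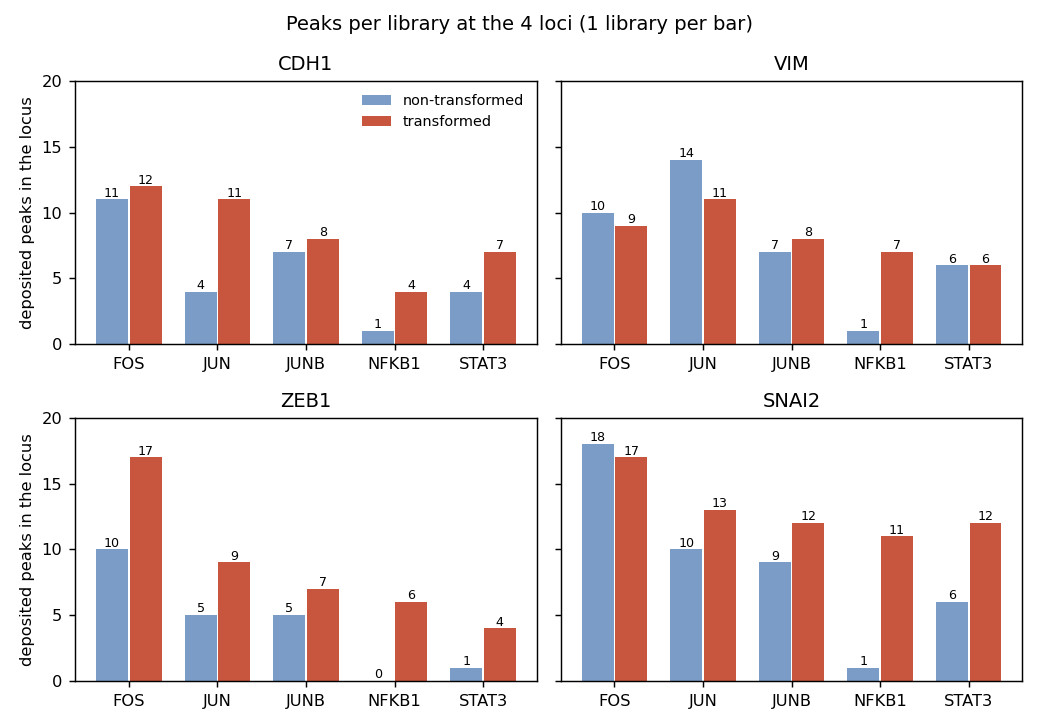
Number of deposited peaks (y axis) of each protein (x axis) in the interval of each gene; blue bars are the library of non-transformed cells and red bars that of transformed cells, 1 library per bar. FOS had the most peaks at CDH1, ZEB1 and SNAI2 in both states, and at ZEB1 its peaks went from 10 to 17; NFKB1 had at most 1 peak per locus in non-transformed cells.

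In all, 130 of the peaks were from non-transformed and 191 from transformed cells. The excess was largest at ZEB1, where 21 peaks in non-transformed and 43 in transformed cells were called. At CDH1 the numbers were 27 and 42, at SNAI2 44 and 65, and at VIM 38 and 41. The VIM locus was the one where the numbers were closest, and there FOS went from 10 to 9 peaks and JUN from 14 to 11. Transformed cells also had more peaks of every protein over the genome, so each class of sites is read below against its share of all sites of the same protein.

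By the state in which a peak was called, FOS sites were mostly common to both states. Of 62 FOS sites at the 4 loci, 40 had a peak in both states, 15 in transformed cells only and 7 in non-transformed cells only, or 64.5% (95% Wilson interval 52.1 to 75.3%), 24.2% and 11.3%. Over the genome the shares were 54.8%, 34.5% and 10.7%. JUN had 23 common, 21 transformed-only and 8 non-transformed-only sites of 52, with genomic shares of 45.2%, 43.2% and 11.6%. For JUNB, 22 of 38 sites were common, 12 were called in transformed cells only and 4 in non-transformed cells only, against 46.9%, 37.3% and 15.8%. The Wilson intervals of the transformed-only shares at the loci, 15.2 to 36.2% for FOS, 28.2 to 53.9% for JUN and 19.1 to 47.5% for JUNB, hold the genomic shares. Neighbouring sites of the same libraries are not independent, so this is a description and not a test.

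NFKB1 and STAT3 had larger transformed-only shares, as they did over the genome. STAT3 had 17 of 33 sites in transformed cells only, 6 in non-transformed cells only and 10 in both, against 53.0%, 13.2% and 33.7% over the genome. NFKB1 had 25 of 28 sites in transformed cells only, 3 in both and none in non-transformed cells only (0 of 28, upper Wilson limit 12.1%), against 82.0%, 16.2% and 1.79%. The NFKB1 lists differed in sensitivity, since the lowest summit in the list of non-transformed cells stood at 0.827 pileup reads per 1000000 filtered reads (RPM) and that of transformed cells at 0.413. Of the 25 transformed-only NFKB1 sites, 10 stood above 0.827 RPM, 2 of them above 2 times that level, 3 were equal to it within 0.1% and 12 stood below the lowest level listed at the shallower depth. Among these 12 are VIM sites 7 and 13 and ZEB1 sites 16 and 22, described below, and VIM site 12 is among the 3. For STAT3 the lowest listed levels were 0.457 and 0.446 RPM, and all 17 transformed-only sites stood above the former, 8 of them above 2 times it. As these levels are close, standing above the former was nearly given. A summit above the lowest listed level need not be called as a peak.

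**Figure D2:**
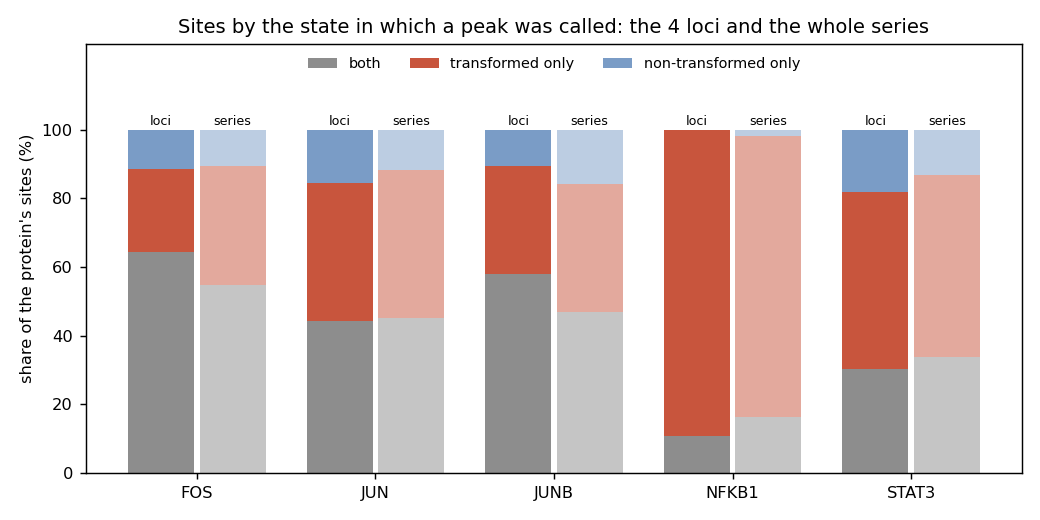
Share of each protein's sites (y axis, percent) with a peak in both states (grey), in transformed cells only (red) or in non-transformed cells only (blue), at the 4 loci (full colour) and over the whole series (pale). The transformed-only share at the loci is 24.2% for FOS against 34.5% over the series, and 89.3% for NFKB1 against 82.0%.

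The counts by gene, which were not tested, were uneven. At ZEB1, 8 of 18 FOS sites, 6 of 11 JUN sites, 6 of 6 NFKB1 sites and 4 of 5 STAT3 sites were transformed only, and NFKB1 and STAT3 had no common site there. The highest NFKB1 summit at ZEB1, 0.724 RPM, lay below the lowest listed in non-transformed cells, 0.827 RPM. At VIM, 1 of 10 FOS sites and 3 of 15 JUN sites were transformed only, and 4 JUN sites were non-transformed only. At CDH1, JUN had 7 of 11 sites in transformed cells only (Wilson interval 35.4 to 84.8%, against 43.2% over the genome) and 0 of 11 in non-transformed cells only (upper Wilson limit 25.9%, against 11.6%). Across all 10 lists, 15 of 29 ZEB1 sites, 5 of 16 CDH1 sites, 5 of 25 SNAI2 sites and 3 of 18 VIM sites had peaks in transformed cells alone, against 34.6% of all sites. Sites with peaks in non-transformed cells alone numbered 5, 2, 4 and 4 at ZEB1, CDH1, SNAI2 and VIM, against 15.0% of all sites. ZEB1 was also the locus with most sites supported by a single list, 16 of 29, compared with 5 of 16, 5 of 18 and 7 of 25 at CDH1, VIM and SNAI2 and 38.7% of all sites.

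**Figure D3:**
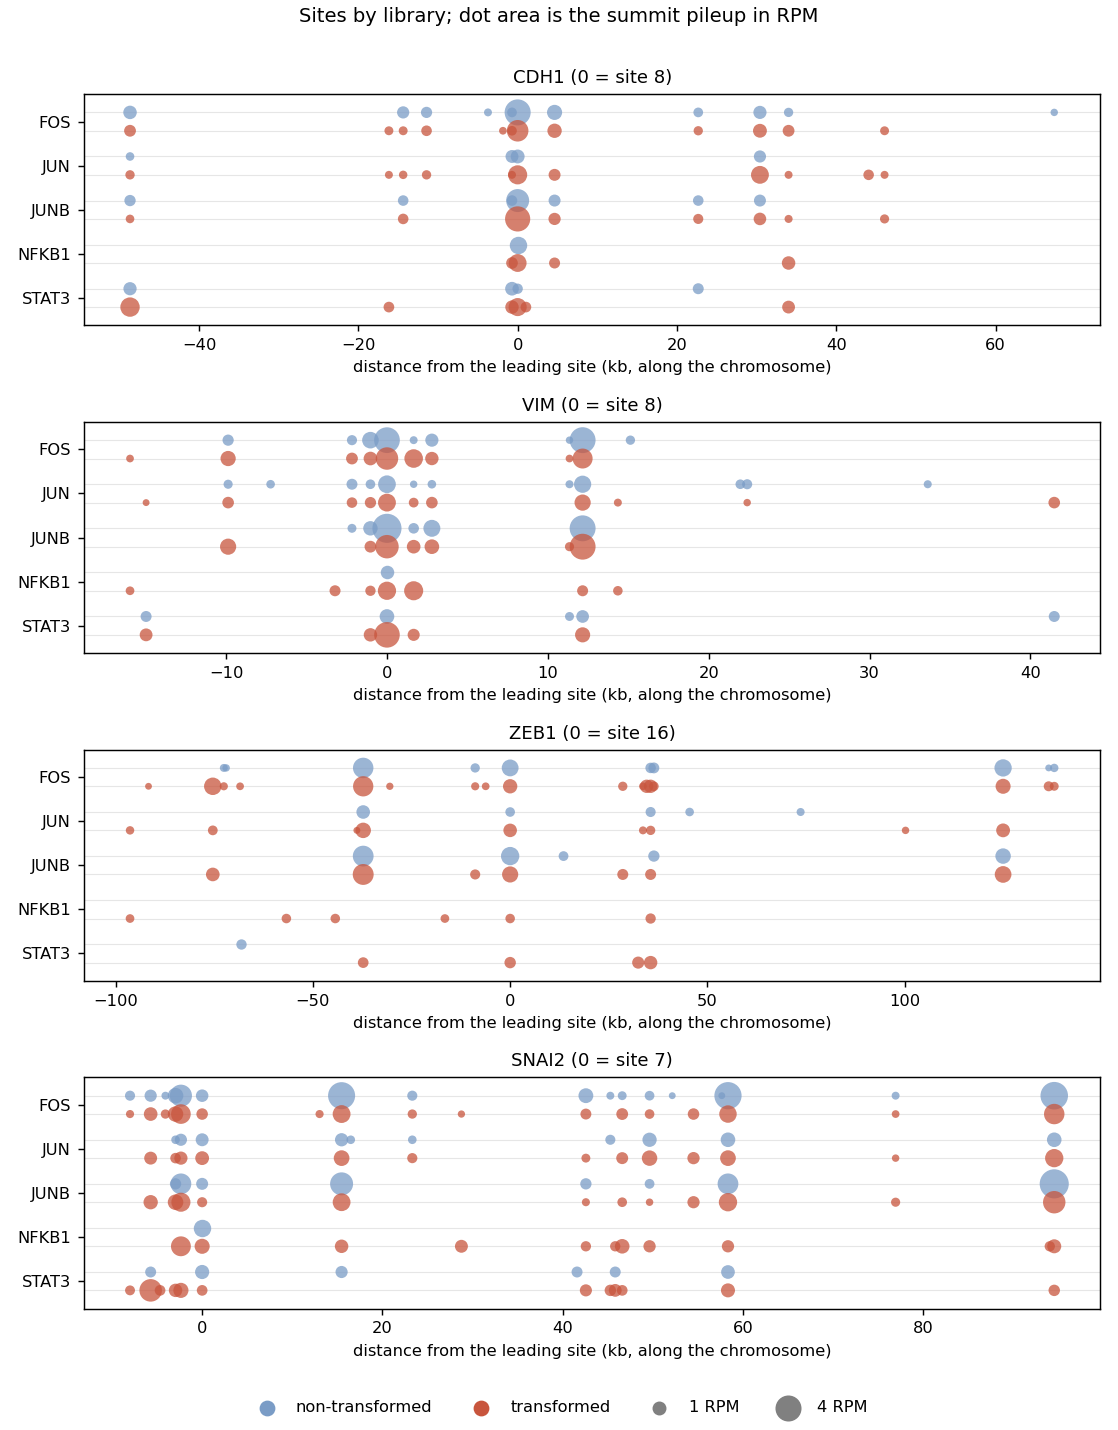
Positions of all 88 sites at the 4 loci, as distance along the chromosome (x axis, kb) from the site with peaks in most lists; each row is a library (blue, non-transformed; red, transformed) and dot area is the summit pileup in RPM. The strongest FOS and JUNB sites lie within 12.2 kb of 0 at CDH1 and VIM, whereas those of SNAI2 reach to 94.5 kb to the right of its site 7 and those of ZEB1 are weaker and wider apart.

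At CDH1 a single site led the locus. Site 8, chr16:68790073-68790505, had a peak in all 10 lists, as did 1 site each at VIM and SNAI2 and none at ZEB1. FOS stood there at 4.62 RPM in non-transformed and 3.17 in transformed cells, a ratio of 0.686 (95% interval 0.493 to 0.952). Pairs of levels at a site give non-transformed cells first, and each ratio is transformed over non-transformed. JUN stood at 1.32 and 2.49 RPM (ratio 1.88, 1.1 to 3.32), and STAT3 at 0.732 and 2.23 (3.05, 1.29 to 8). At this site FOS was lower and JUN and STAT3 were higher in transformed cells by more than counting error. The intervals of FOS, JUN and STAT3 also hold the median ratios of these proteins over the common sites of the series, 0.949, 1.29 and 1.71. JUNB stood at 3.6 and 4.32 RPM (1.2, 0.781 to 1.88) and NFKB1 at 2.07 and 2.17 (1.05, 0.473 to 2.5), and neither difference exceeded counting error. In fold enrichment over the background that MACS estimated, this site was the highest of the locus for every protein and state except STAT3.

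STAT3 was highest at other CDH1 sites. In transformed cells its leading site was site 1, chr16:68741230-68742028, 48.7 kb to the left of site 8 on the map, at 2.56 RPM against 1.19 in non-transformed cells (ratio 2.16, 1.05 to 4.63). This site joins several summits whose strongest peaks lie 498 bp apart, and the AP-1 proteins were low there, at 0.505 to 1.24 RPM in the 6 lists. In non-transformed cells STAT3 was highest at site 7, chr16:68789392-68789767, 0.7 kb left of site 8, with 1.28 RPM against 1.23 in transformed cells (0.958, 0.393 to 2.27). JUN was lower in transformed cells by more than counting error at site 7, with 1.14 and 0.434 RPM (0.382, 0.144 to 0.923). It was higher at site 12, chr16:68820545-68820866, with 1.01 and 2.17 RPM (2.15, 1.18 to 4.11), so JUN differed in opposite directions at sites of the CDH1 locus. JUNB had a peak at site 7 in non-transformed cells only and NFKB1 in transformed cells only. The CDH1 sites of 1 state by the naming rule were weak: site 15, chr16:68836186-68836514, had FOS, JUN and JUNB peaks of 0.543, 0.434 and 0.571 RPM in transformed cells only, and site 5, chr16:68786415-68786715, a FOS peak of 0.43 in non-transformed cells only.

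At VIM, sites 6 to 10 lay between 2.2 kb to the left and 2.8 kb to the right of the leading site 8, chr10:17258179-17258638. STAT3 there stood at 1.46 and 4.46 RPM, a ratio of 3.05 (1.67 to 5.83), and this was the highest STAT3 summit of the 4 loci. JUNB was lower in transformed cells, with 5.77 and 3.75 RPM (0.649, 0.44 to 0.958). FOS stood at 4.51 and 3.44 (0.763, 0.552 to 1.05), JUN at 2.14 and 2.17 (1.01, 0.624 to 1.65) and NFKB1 at 1.24 and 2.27 (1.83, 0.721 to 5.53), all within counting error. The AP-1 proteins were thus strong here in non-transformed cells, and STAT3 was the only one of the 5 that was higher in transformed cells by more than counting error. The STAT3 interval holds the median STAT3 ratio over the common sites of the series, 1.71.

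Site 9 of VIM, chr10:17259855-17260282, lay 1.7 kb to the right of site 8 and had the largest FOS ratio of the 4 loci. FOS stood at 0.43 and 2.35 RPM (5.48, 2.59 to 13.4). JUNB stood at 0.763 and 1.27 (1.66, 0.676 to 4.66) and JUN at 0.378 and 0.65 (1.72, 0.597 to 5.58). NFKB1 and STAT3 had peaks there in transformed cells only, of 2.48 and 1 RPM, the former the highest NFKB1 summit at VIM. A site with low AP-1 peaks in non-transformed cells thus carried all 5 proteins in transformed cells. Site 7, chr10:17256897-17257866, also had NFKB1 and STAT3 peaks in transformed cells only, of 0.724 and 1.23 RPM, beside AP-1 peaks that differed by no more than counting error (FOS 1.88 and 1.27, JUN 0.631 and 0.867, JUNB 1.42 and 0.952). Site 7 joins several summits whose strongest peaks lie 416 bp apart, so its peaks need not share a position. Its NFKB1 peak, unlike that of site 9, was below the lowest level listed in non-transformed cells, 0.827 RPM.

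The other strong AP-1 site of VIM was site 12, chr10:17270373-17270772, 12.2 kb to the right of site 8. Of the proteins with peaks in both states there, FOS alone differed by more than counting error. It stood at 4.57 and 2.72 RPM (0.595, 0.42 to 0.838), whereas JUNB stood at 4.58 and 4.57 (0.999, 0.674 to 1.5) and JUN at 2.02 and 1.79 (0.886, 0.528 to 1.49). STAT3 stood at 1.1 and 1.56 (1.42, 0.61 to 3.37), and NFKB1 had a peak of 0.827 in transformed cells only. Beyond these, VIM had weak sites of 1 state. Site 13, chr10:17272539-17272989, had JUN and NFKB1 peaks of 0.434 and 0.62 RPM in transformed cells, and site 15, chr10:17280226-17280526, a JUN peak of 0.631 in non-transformed cells.

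At ZEB1 the strongest AP-1 site, site 11 at chr10:31642529-31642862, had AP-1 levels that differed within counting error. FOS stood at 2.85 and 2.81 RPM (0.986, 0.673 to 1.45), JUNB at 2.94 and 2.98 (1.01, 0.619 to 1.69) and JUN at 1.26 and 1.63 (1.29, 0.708 to 2.39). STAT3 had a peak of 0.781 in transformed cells only, and NFKB1 none. Site 16, chr10:31679777-31680127, had peaks in 8 lists, the most at ZEB1: FOS at 1.93 and 1.4, JUN at 0.631 and 1.25 and JUNB at 2.29 and 1.78, all within counting error. NFKB1 (0.62) and STAT3 (0.892) had peaks there in transformed cells only.

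Site 22 of ZEB1, chr10:31715376-31715752, held the highest NFKB1 and STAT3 summits of this locus, which were still low, at 0.724 and 1.23 RPM in transformed cells only. FOS stood there at 0.752 and 1.22 (1.63, 0.823 to 3.36) and JUN at 0.694 and 0.596, and JUNB had a peak of 0.825 in transformed cells only. Site 27, chr10:31804756-31805091, was an AP-1 site with FOS at 2.04 and 1.54, JUNB at 1.63 and 1.9 and a JUN peak of 1.3 in transformed cells only. Of the 15 ZEB1 sites called in transformed cells alone, the naming rule took site 3, chr10:31604399-31604730, which had the highest FOS summit of such sites at the 4 loci, with FOS at 2.08, JUNB at 1.27 and JUN at 0.65 RPM. The lowest FOS summit listed in non-transformed cells was 0.269 RPM, which the FOS summit of site 3 exceeded by more than 2 times. Of the 5 called in non-transformed cells alone it took site 7, chr10:31611653-31611953, a single STAT3 peak of 0.732 and the only STAT3 peak of ZEB1 in those cells.

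SNAI2 had the most peaks, and FOS and JUN differed in direction at its sites 25, 22 and 9, FOS beyond counting error and JUN within it. At site 25, chr8:49882924-49883587, FOS stood at 5.16 and 2.85 RPM (0.553, 0.396 to 0.768) and JUNB at 5.77 and 3.43 (0.594, 0.399 to 0.884), whereas JUN stood at 1.45 and 2.28 (1.57, 0.922 to 2.73). NFKB1 and STAT3 had peaks of 1.34 and 0.892 there in transformed cells only. The FOS ratio was lower still at site 22, chr8:49846893-49847252, with 5.05 and 2.08 RPM (0.413, 0.283 to 0.593), while JUNB (2.94 and 2.29), JUN (1.45 and 1.68) and STAT3 (1.28 and 1.34) differed within counting error. Site 9, which is outside the naming rule and was chosen after its values were seen, had FOS at 4.99 and 2.17 (0.435, 0.301 to 0.623) and JUN at 1.2 and 1.68 (1.4, 0.767 to 2.63). JUNB stood at 3.6 and 2.16 there (0.6, 0.361 to 1). NFKB1 had a peak of 1.24 at site 9 in transformed cells only, and STAT3 a peak of 1.01 in non-transformed cells only.

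**Figure D4:**
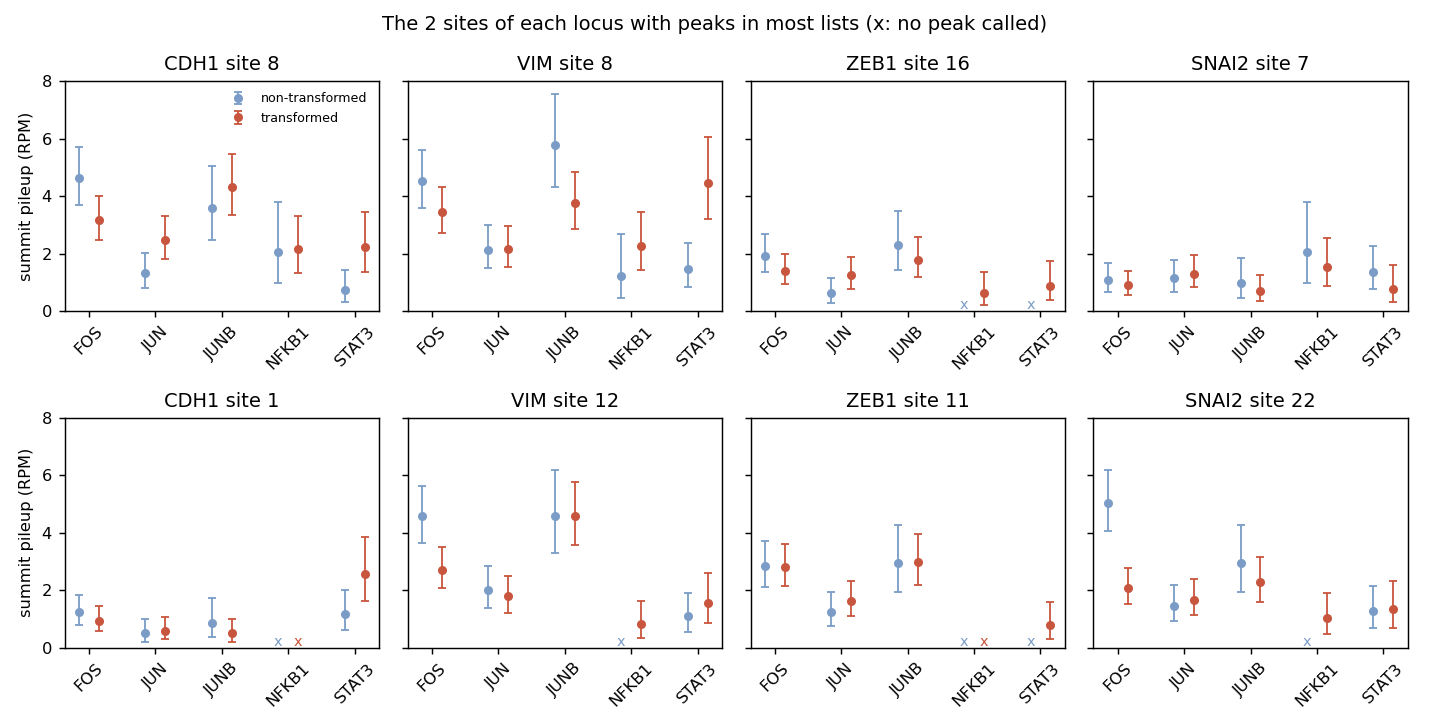
Summit pileup in RPM (y axis) of each protein (x axis) at the 2 sites of each gene with peaks in most lists; blue, non-transformed; red, transformed; bars are exact 95% Poisson intervals of 1 library each, and x marks a protein with no peak. STAT3 at VIM site 8 stands at 1.46 and 4.46 and FOS at SNAI2 site 22 at 5.05 and 2.08.

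STAT3 and NFKB1 were highest at SNAI2 near its left end. Site 2, chr8:49782863-49783229, had the largest STAT3 ratio of the 4 loci, with 0.823 and 3.46 RPM (4.2, 1.95 to 10). There FOS stood at 1.02 and 1.27, and JUN and JUNB had peaks of 1.14 and 1.4 in transformed cells only. Site 6, chr8:49786220-49786580, held the highest NFKB1 summit of the 4 loci, 2.69 RPM, and a STAT3 peak of 1.56, both in transformed cells only. AP-1 had peaks at site 6 in both states, with FOS at 3.33 and 2.63, JUNB at 2.94 and 2.48 and JUN at 1.01 and 1.19, and the FOS ratio there (0.789, 0.542 to 1.15) was within counting error.

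Site 7 of SNAI2, chr8:49788566-49788945, the one with peaks in all 10 lists, was not the strongest site of the locus. Each of its proteins differed within counting error: FOS 1.07 and 0.906, JUN 1.14 and 1.3, JUNB 0.981 and 0.698, NFKB1 2.07 and 1.55 and STAT3 1.37 and 0.781 RPM. Of the SNAI2 summits in non-transformed cells, those of NFKB1 and STAT3 were highest here. The naming rule took site 20, chr8:49843071-49843429, with FOS, JUN and JUNB peaks of 0.906, 1.03 and 1.02 RPM, from the 5 SNAI2 sites called in transformed cells alone, and site 13, chr8:49830183-49830483, with a STAT3 peak of 0.823, from the 4 called in non-transformed cells alone.

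To place these differences against the whole series, the ratio of transformed to non-transformed pileup in RPM was summarized over sites with a peak in both states. FOS had a median ratio of 0.949 over 97455 common sites, and 0.901, 1.06, 0.986 and 0.843 at CDH1, VIM, ZEB1 and SNAI2. Of the 14 common FOS sites of SNAI2, 5 were at least 1.5-fold lower, compared with 20.4% of all common FOS sites. Over the 4 loci 7 of 40 FOS sites were at least 1.5-fold lower and 6 were at least 1.5-fold higher (18.5% of all common FOS sites). All 7 sites of the 4 loci with at least 3 RPM of FOS in non-transformed cells were lower in transformed cells, with ratios of 0.413 to 0.789. Over the series, however, 94.5% of the 12320 sites above this level were lower, with a median ratio of 0.697, and selecting on one list favours lower values in the other. When sites were selected by the mean of both lists, 6 of 6 at the loci and 88.5% over the series were lower, with medians of 0.574 and 0.728. Selection by the transformed list, which favours higher values, left 2 of 2 sites at the loci and 67.6% of 7362 over the series lower, with medians of 0.724 and 0.843. Lower FOS pileup at strong sites was therefore seen across these libraries as a whole, and CDH1, VIM and SNAI2 shared it.

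JUN had a median ratio of 1.29 both over the series and over the 23 common sites of the 4 loci. All 8 common JUN sites of SNAI2 were above 1, each with an interval that holds 1, compared with 46881 of 62922 common JUN sites over the series. The JUN median was 1.28 at SNAI2, and the medians of CDH1, VIM and ZEB1 were 1.49, 1.18 and 1.29. At least 1.5-fold higher were 8 of 23 common JUN sites (36.6% over the series) and at least 1.5-fold lower 2 (4.53%). JUNB differed more from its series median of 0.964, with 0.654 at SNAI2 and 0.745 at VIM, but 1.02 at CDH1 and 1.01 at ZEB1. On the fold enrichment that MACS wrote, the JUNB medians were 0.884 at SNAI2 and 0.989 at VIM against 1.27 over the series, so both genes lay below the series on either scale. Of 22 common JUNB sites, 6 were at least 1.5-fold lower (21.0% over the series) and 2 higher (18.6%). STAT3 had a median ratio of 1.71 over the series, 2.16 over 3 common sites of CDH1, 1.42 over 3 of VIM and 1.19 over 4 of SNAI2, and 4 of these 10 sites were at least 1.5-fold higher (58.8% over the series) and 1 lower (3.89%). The NFKB1 median over the series was 1.03 in RPM and 1.65 in fold enrichment. Its 3 common sites at the loci were 1 each at CDH1, VIM and SNAI2. Their ratios in RPM were 1.05, 1.83 and 0.75, with intervals that all hold 1. In RPM, 1 of the 3 was at least 1.5-fold higher (23.7% over the series) and 0 lower (18.1%). Their ratios in fold enrichment were 1.74, 2.86 and 1.24. Fold enrichment favours the deeper library of a pair. For NFKB1 this was the library of transformed cells, with 9674390 filtered reads against 4837474. The NFKB1 ratios in fold enrichment are therefore not read as a gain, and the part of depth in them was not tested.

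**Figure D5:**
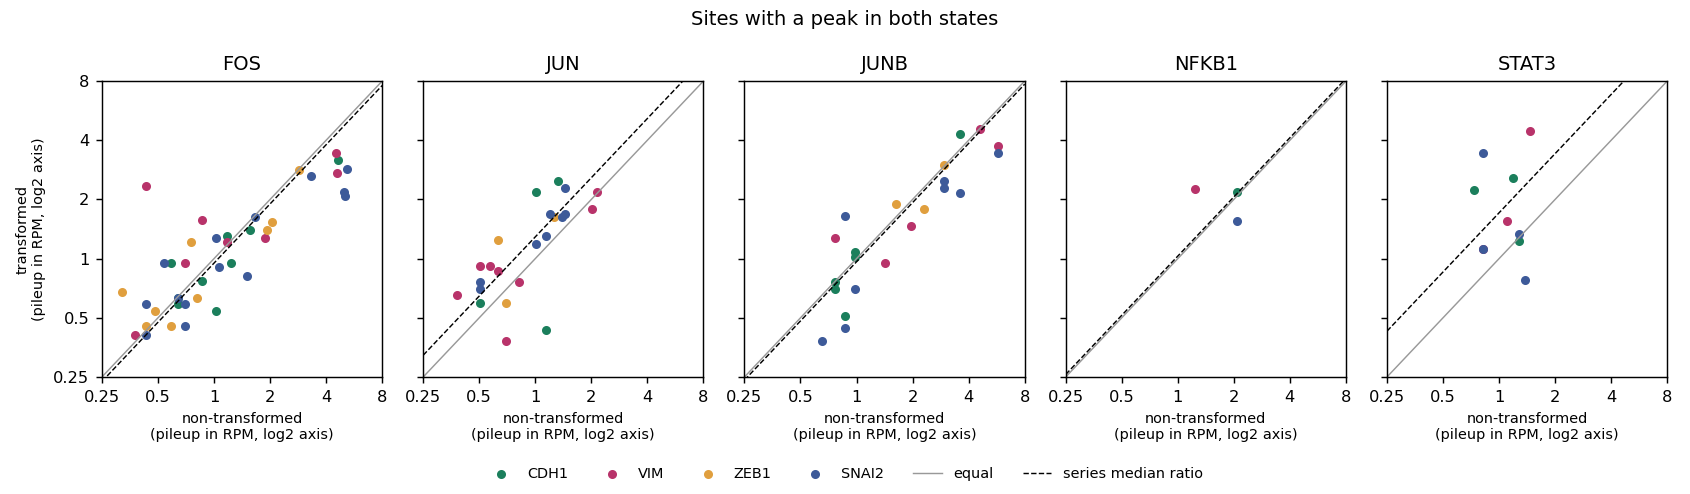
Summit pileup in RPM in non-transformed (x axis) and transformed cells (y axis), both log2 axes, at the sites of the 4 loci with a peak in both states; the solid line marks equal values and the dashed line the median ratio over all common sites of the series. FOS points above 3 on the x axis lie below the line of equal values, and VIM site 9 lies far above it at 0.43 and 2.35.

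Of the 98 ratios behind these medians, counting protein and site together, few exceeded counting error. The counts that follow are against a ratio of 1, not against the series medians. Their shares over all common sites of the series were not computed, so they do not set the loci apart from the series. For FOS, 5 of 40 intervals lay wholly below 1 and 1 wholly above it. For JUN, 1 lay below and 2 above of 23, for JUNB 2 below and 0 above of 22, and for STAT3 0 below and 4 above of 10. The 4 STAT3 ratios were those of CDH1 sites 1 and 8, VIM site 8 and SNAI2 site 2, so ZEB1, with no common STAT3 site, was the gene without one. The intervals of CDH1 sites 1 and 8 and VIM site 8 hold the STAT3 series median of 1.71, and that of SNAI2 site 2 lies above it. The pileup counts reads extended to an estimated fragment length, which was 150 bp in the STAT3 library of non-transformed cells and 119 bp in that of transformed cells. Longer extension raises the pileup of the former, and the part of fragment length in the ratios was not tested.

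The proteins met at more of the sites in transformed cells, as they did over the series. All 5 had a peak at 3 sites in non-transformed cells (CDH1 site 8, VIM site 8 and SNAI2 site 7) and at 14 in transformed cells, against 2.41% and 14.8% of all sites. NFKB1, the shallowest library, had only 3 peaks at the 4 loci in non-transformed cells, so the count there could not exceed 3. The 14 comprised 2 at CDH1, 4 at VIM, 2 at ZEB1 and 6 at SNAI2. They include VIM site 7, where the strongest peaks of the lists lie 416 bp apart. As 3 and 14 of 88 sites, both counts were near these shares. Of the sites with FOS, JUN or JUNB, all 3 proteins had peaks at 19 of 55 in non-transformed cells and 30 of 63 in transformed cells, against 26.1% and 38.8%. SNAI2 contributed 12 of 17 in transformed cells and ZEB1 5 of 20.

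STAT3 and NFKB1 lay mostly on AP-1 sites, as they did over the series. In transformed cells, 22 of 27 STAT3 sites and 22 of 28 NFKB1 sites also had an AP-1 peak, against 88.1% and 86.2% over the series. In non-transformed cells, this held for 11 of 16 STAT3 sites (80.8% over the series) and 3 of 3 NFKB1 sites (86.5%). Of the 17 STAT3 sites called in transformed cells only, 13 had an AP-1 peak in non-transformed cells, against 62.7%, with 7 of 8 at SNAI2, 3 of 4 at ZEB1, 2 of 2 at VIM and 1 of 3 at CDH1. Of the 25 such NFKB1 sites, 15 had one, against 73.6%, with 3 of 3 at CDH1, 7 of 10 at SNAI2, 3 of 6 at VIM and 2 of 6 at ZEB1. NFKB1 and STAT3 shared 16 of the 28 NFKB1 sites in transformed cells, against 62.9%.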

How the data were processed

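ChIP-seq peak lists of 5 proteins in 2 states were used, 1 library each, grouped by the labels. The authors called peaks per library with MACS 2.0.10.20131216 from 36-bp reads, without a control library, keeping 1 read per position, at a q-value cutoff of 0.05; the submitters' processing notes name Bowtie and hg19. The deposited pileup is a signal, the unscaled count of extended reads at the summit. The deposited p-values and q-values are given as −log10, and the deposited positions are 1-based. The deposited fold enrichment is the ratio of the pileup to the estimated background, with 1 read added to each. Because of the added read it corrects for depth only in part and favours the deeper library of a pair.

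Here, pileups were scaled to 1000000 filtered reads (RPM). Peaks on autosomes and X were merged into sites when summits with 150 bp on each side overlapped by at least 1 bp, and the highest peak stood for a list. Ratios have exact 95% intervals of 2 Poisson counts, which cover counting error only. Shares have Wilson 95% intervals, which treat sites as independent draws and do not cover the spread between cultures. Levels below the authors' cutoff are unknown. With 1 library per group there was no test. The site code recovered the built-in classes of 5 of 5 proteins in simulated data of 20000 sites.

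Named sites were, at each locus, the 4 with peaks in most lists, 1 of each state alone, and the highest fold enrichment of each list. The genes, intervals and rules were chosen with earlier results of these data known. Alternatives were whole peaks, 50-bp flanks, a −log10 q-value of at least 10, at least 2 RPM, fold enrichment in place of pileup and intervals extended by 20 kb. Peak sequences, other genes of the pathway and start sites need hg19 and were not analysed here. Python 3.11.15, numpy 2.4.6, pandas 2.3.3 and scipy 1.17.1 were used.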

Additional observations from a re-analysis of the deposited data

Results flagged for a closer look

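Over all sites of the 4 loci with a peak in both states, the summed pileup in RPM (pileup reads per 1000000 filtered reads) moved in opposite directions between proteins. The ratio of transformed to non-transformed sums was 0.809 for FOS (95% counting interval 0.745 to 0.878) and 0.846 for JUNB (0.748 to 0.958), but 1.26 for JUN (1.1 to 1.44) and 1.82 for STAT3 (1.44 to 2.32). Over all common sites of the series the corresponding ratios were 0.928, 0.989, 1.36 and 1.89. Each is the ratio of 1 library to 1 library, and the difference between the proteins was not tested. The direction of JUNB turned with the scale, since its median ratio over the 22 common sites was 0.809 in RPM and 1.09 in fold enrichment.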

How the results depend on the processing

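Of 118 recomputed values, 89 stayed within the limits of the main values and 29 moved. Whole peaks, 50-bp flanks and intervals extended by 20 kb moved none. With a −log10 q-value of at least 10, the 88 sites became 37, and sites of all 5 proteins went from 3 to 0 in non-transformed and from 14 to 3 in transformed cells. Sites in transformed and in non-transformed cells only then numbered 8 and 2 for FOS, 13 and 1 for JUN and 7 and 1 for STAT3. JUNB had 0 in non-transformed cells only and NFKB1 7 in transformed cells only. The median log2 ratios became −0.39 (FOS at VIM, from 0.08), −0.60 (FOS at SNAI2, from −0.25) and 1.61 (STAT3 at VIM, from 0.51), and NFKB1 at VIM had no common site left. With at least 2 RPM, 16 sites remained, 0 and 2 of them with all 5 proteins in non-transformed and transformed cells, and sites of transformed and non-transformed cells only were 2 and 1 (FOS), 3 and 1 (JUN), 0 and 1 (JUNB), 3 and 1 (NFKB1) and 4 and 0 (STAT3). The 1 JUNB site was ZEB1 site 16, with peaks in both states, of 2.29 and 1.78 RPM, on either side of the limit. It is not read as a turn from the 12 and 4 of the main setting. Both settings keep fewer peaks by construction. With fold enrichment, the JUNB medians became −0.02 at VIM and −0.18 at SNAI2. The sign of the median also changed under 1 alternative each for FOS at VIM (lowest −0.39) and ZEB1 (highest 0.10), JUN at VIM (lowest −0.08) and NFKB1 at SNAI2 (highest 0.31). Fold enrichment moved the series median log2 ratio from 0.04 to 0.72 for NFKB1 and from −0.05 to 0.34 for JUNB, and by less for the others. For NFKB1 and JUNB the transformed library was the deeper one, which fold enrichment corrects for only in part. No paired analysis was possible because every group is a single library, which also leaves no replicate to omit. Depth limits the NFKB1 classes most.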
